A study of Mus musculus with 14 samples.

Results

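MicroRNAs (miRNAs) whose textbook expression is restricted to muscle, liver or gut were measured in macrophages and in the exosomes that macrophages release. They were 7 of the 1250 mature miRNA lines counted, and were taken by name: mmu-miR-1a-3p, mmu-miR-133a-3p, mmu-miR-206-3p and mmu-miR-499-5p of muscle and heart, mmu-miR-122-5p of liver, and mmu-miR-192-5p and mmu-miR-194-5p of gut, liver and kidney. The prefix, for Mus musculus, is left out below. The 14 mouse small RNA libraries formed 4 groups: exosomes of IL4-stimulated macrophages (4 libraries), exosomes of control macrophages (4), lysates of IL4-stimulated macrophages (3) and lysates of control macrophages (3). Stimulation is given by the treatment label and IL4 by the titles, and the controls are labelled wild type. All samples have bone marrow as their source and excised bone as their tissue. The sources used here do not give strain, age, number of animals, or the dose and duration of IL4. Each title carries a date, by which replicates are numbered, and in either compartment a date had an IL4 library and a control library. The exosomes of 29 December are the earliest.

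The myomiRs, miRNAs that muscle-specific transcription factors switch on together, act on muscle differentiation and contraction. In them miR-1 and miR-206 share a seed, the stretch at the 5′ end that pairs with target messages, while miR-133 comes from the same primary transcripts as miR-1 or miR-206 and has a seed of its own. The miRNA miR-122 makes up most of the miRNA of hepatocytes, where it acts on cholesterol and lipid metabolism, and it circulates in blood plasma. The miRNAs miR-192, miR-194 and miR-215 are made as pairs from clustered genes in intestinal epithelium, liver and kidney.

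Mature sequences of 4 of the 7 miRNAs, and of the paralog miR-215-5p, were taken from RefSeq (GRCm38.p6) and are shown 5′ to 3′ with the seed, bases 2 to 8, in capitals, because reads of miRNAs alike in sequence can be counted on either line.
miR-206-3p: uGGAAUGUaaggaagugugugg
miR-499-5p: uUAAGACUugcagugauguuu
miR-192-5p: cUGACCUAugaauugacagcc
miR-215-5p: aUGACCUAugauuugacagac
miR-194-5p: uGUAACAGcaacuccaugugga
The seed of miR-192-5p was also that of miR-215-5p, and 18 of their 21 bases were the same. The seeds of miR-499-5p and miR-194-5p were found in 0 other matures of the table, and that of miR-206-3p in 2, miR-6349 and miR-6382. The table held no sequence of miR-1a-3p, miR-133a-3p or miR-122-5p, so a shared seed could be missed.

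In the GRCm38 (mm10) annotation several of these genes lie as pairs. Mir206 is on chromosome 1 at 20679010 to 20679082, plus strand, within the long noncoding gene Gm28653, with Mir133b 3686 bases away. Mir1a-1 (chromosome 2, 180389048 to 180389124) and Mir133a-2 (chromosome 2, 180398379 to 180398482) are intergenic and lie 9254 bases apart, and the second copies of both, like Mir122, are on chromosome 18. The second copy of miR-1a, Mir1a-2, overlaps Mir1b on the opposite strand. Use of the strand in counting was not stated, so reads of miR-1a-3p and miR-1b cannot be told apart by strand. Mir499 (chromosome 2, 155622880 to 155622958, plus strand) lies in an intron of Myh7b, a slow-muscle and cardiac myosin gene. Mir192 (chromosome 19, 6264844 to 6264932) is intergenic, 115 bases from Mir194-2 (6264643 to 6264728). The other copy, Mir194-1 (chromosome 1, 185313319 to 185313385), lies 195 bases from Mir215, in an intron of the noncoding gene 2010103J01Rik and opposite to Iars2.

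Exosome libraries were much shallower than lysates. Total counts ran from 50032 to 411671 in IL4 exosomes and from 28417 to 199025 in control exosomes, against 3941480 to 5852831 in IL4 lysates and 5511688 to 6792079 in control lysates. Levels below are CPM, counts scaled to the total of the library, so that 1 read was worth 2.43 to 35.2 CPM in an exosome library and 0.147 to 0.254 CPM in a lysate. Macrophage and myeloid miRNAs were present as the label says: the 6 listed ones had counts in every group and together took 21.4% to 31.8% of counts in IL4 exosomes, 21.8% to 28.9% in control exosomes, 34.3% to 44.7% in IL4 lysates and 28.5% to 34.8% in control lysates. In exosomes against lysates 5 of the 6 were called lower in controls and 3 with IL4, by the test given below. Of all tested lines 21.6% and 18.9% were. The number of lines called lower hung on the scaling. It was 73 in controls and 64 with IL4, but 16 and 12 when libraries were scaled by their totals alone. The 7 organ-restricted miRNAs together took a median of 0.408% in IL4 exosomes, 1.04% in control exosomes, 0.0268% in IL4 lysates and 0.0421% in control lysates.

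Of the muscle miRNAs, miR-1a-3p, which acts in cardiac and skeletal muscle differentiation, was the most abundant in exosomes and close to the limit of counting in lysates. Its level was 600, 308, 576 and 287 CPM in IL4 exosome replicates 1 to 4, from 30, 23, 237 and 22 counts. Control exosome replicates 1 to 4 had 1056, 588, 246 and 3281 CPM, from 30, 32, 49 and 120 counts. Control replicate 4, of 29 December, was the highest of all, control replicate 3 the lowest of the exosomes, and the IL4 libraries lay between them. In lysates the levels were 3.59, 6.85 and 3.89 CPM with IL4 (21, 27 and 20 counts) and 1.56, 2.65 and 1.27 CPM in controls (9, 18 and 7 counts). Every lysate lay below every exosome library, and each IL4 lysate above each control lysate. By mean CPM miR-1a-3p ranked 118 of all lines in IL4 exosomes and 80 in control exosomes, against 339 in IL4 lysates and 440 in control lysates.

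The partner of miR-1a in its primary transcript, miR-133a-3p, which restrains smooth-muscle genes, was rarer. It had 2, 7, 14 and 0 counts in IL4 exosomes (40.0, 93.8, 34.0 and 0 CPM) and 5, 4, 14 and 1 in control exosomes (176, 73.6, 70.3 and 27.3 CPM). The IL4 lysates held 6, 10 and 0 counts (1.03, 2.54 and 0 CPM) and the control lysates 0, 10 and 1 (0, 1.47 and 0.181 CPM). Control exosomes lay wholly above control lysates, whereas the IL4 exosome of 29 December had 0 counts, and so did 1 IL4 lysate.

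The skeletal muscle miRNA miR-206-3p was nearly absent. It had 1, 2, 0 and 0 counts in IL4 exosomes, 0 in all 4 control exosomes, 0, 3 and 0 in IL4 lysates and 0 in all 3 control lysates. Pooled over the group this was 4.89 CPM in IL4 exosomes (95% counting interval 1.01 to 14.3), and totals of 0 have upper limits, by the same interval, of 11.6 CPM in control exosomes and 0.204 CPM in control lysates. It did not pass the filter on low counts. Fitted without a filter its adjusted p was 0.528 between exosome groups and 0.126 between IL4 exosomes and IL4 lysates, and no fold is given since neither side exceeded 3 counts. Intervals and such limits cover counting error only.

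The cardiac and slow-muscle miRNA miR-499-5p had 0, 1, 2 and 0 counts in IL4 exosomes, against 0, 6, 22 and 2 in control exosomes. Pooled, that was 4.89 CPM with IL4 (1.01 to 14.3) and 94.2 CPM in controls (63.6 to 135), although 22 of the control counts came from the 5 April library. Lysates held 4, 10 and 0 counts with IL4 and 0, 13 and 10 in controls, or 0.938 and 1.27 CPM pooled. The exosome groups overlapped, since each had a library at 0.

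The liver miRNA miR-122-5p was the most abundant member in every exosome library but 1. Its level was 1979, 7676, 4198 and 1329 CPM in IL4 exosomes (99 to 1728 counts) and 8164, 11971, 9662 and 902 CPM in control exosomes (33 to 1923 counts). The lowest control library was that of 29 December, in which miR-1a-3p was higher, at 3281 CPM. Lysates had 2.90, 281 and 33.3 CPM with IL4 (17, 1108 and 171 counts) and 8.87, 209 and 193 CPM in controls (51, 1421 and 1066 counts). Both lysates of 23 January had under 10 CPM, and the other lysates had 33.3 CPM or more. The highest library was 96.8 times the lowest in IL4 lysates and 23.6 times in control lysates, against 5.77 times in IL4 exosomes and 13.3 times in control exosomes. By mean CPM it ranked 42 of all lines in IL4 exosomes, 28 in control exosomes, 146 in IL4 lysates and 135 in control lysates.

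The gut, liver and kidney miRNAs varied less than 2-fold among the lysates of either group. For miR-192-5p, which p53 is known to induce, IL4 exosomes had 220, 214, 260 and 300 CPM (11, 16, 107 and 23 counts) and control exosomes 317, 699, 502 and 191 CPM (9, 38, 100 and 7 counts). IL4 lysates had 79.4, 137 and 118 CPM (465, 539 and 605 counts) and control lysates 89.7, 104.5 and 108 CPM (516, 710 and 595 counts). All exosome libraries lay above all lysates in CPM. With the TMM scaling of the tests they did not, the lowest exosome library being at 151 and the highest lysate at 200. For its cluster partner miR-194-5p, IL4 exosomes had 60.0, 362, 167.6 and 222 CPM (3, 27, 69 and 17 counts) and control exosomes 211, 313, 347 and 219 CPM (6, 17, 69 and 8 counts). IL4 lysates had 69.7, 129 and 113 CPM (408, 509 and 582 counts) and control lysates 87.6, 101.3 and 124 CPM (504, 688 and 681 counts). The IL4 exosome of 25 January, with 3 counts, was below every lysate, and in CPM the control exosomes were above every lysate. With TMM scaling the lowest control exosome, at 172, was below the highest IL4 lysate, at 191.

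**Figure D1:**
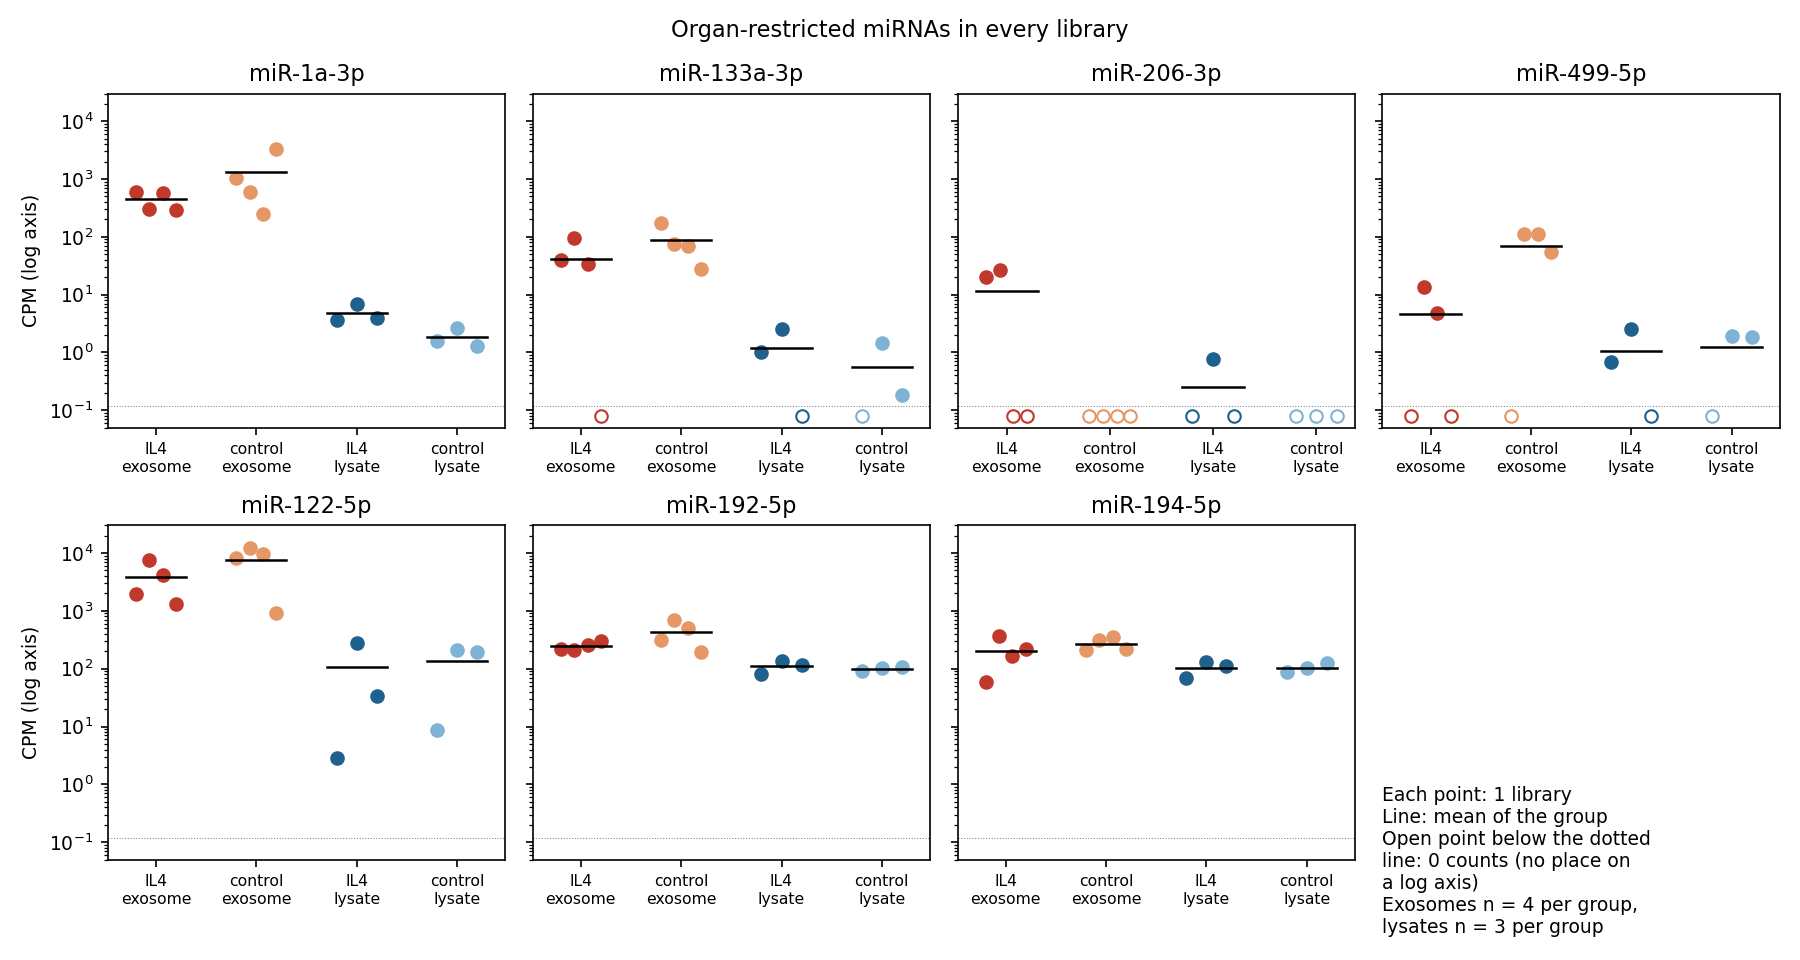
CPM (log axis) of each of the 7 miRNAs in every library, with IL4 exosomes, control exosomes, IL4 lysates and control lysates from left to right; points are libraries, lines are group means, and open points mark 0 counts. The means of miR-1a-3p are 1293 CPM in control exosomes and 1.83 CPM in control lysates, whereas those of miR-192-5p lie closer together, at 427 CPM in control exosomes and 100.7 CPM in control lysates.

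Exosomes were then compared with lysates, which carry other dates, first in control macrophages. The myomiR miR-1a-3p averaged 1293 ± 1366 CPM in control exosomes and 1.83 ± 0.727 CPM in control lysates (SD, n = 4 and 3). Its log2 fold change was 8.64 (SE 1.01, adjusted p = 1.22e-05), and 7.45 without control exosome replicate 4. For miR-133a-3p the means were 86.8 ± 63.1 and 0.551 ± 0.803 CPM in control exosomes and lysates (log2 fold change 6.16, SE 1.43, adjusted p = 0.00229). The log2 fold change of miR-499-5p was 4.94 (SE 1.32, adjusted p = 0.00583). The liver miRNA miR-122-5p averaged 7675 ± 4779 CPM in control exosomes and 137 ± 111 CPM in control lysates (4.85, SE 1.45, adjusted p = 0.0110). The smallest called change was that of miR-192-5p, with 427 ± 222 CPM in control exosomes and 100.7 ± 9.69 CPM in control lysates (1.27, SE 0.42, adjusted p = 0.0186). Its cluster partner miR-194-5p did not pass, with 272 ± 67.7 CPM in control exosomes and 104.2 ± 18.1 CPM in control lysates (0.58, SE 0.46, 95% confidence interval -0.40 to 1.57, adjusted p = 0.307).

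By edgeR's quasi-likelihood test with Benjamini-Hochberg adjustment over 338 lines, 5 of the 6 members tested were higher in control exosomes, and 99 of all tested lines were (29.3%), with 73 lower (21.6%). The median log2 fold change was 4.89 over these members and -0.18 over all tested lines. In 3 members, miR-1a-3p, miR-133a-3p and miR-499-5p, lysate levels were below the filter's minimum, so they could be tested only because they were high in exosomes. The count and the median therefore describe the members and add no support. The CPM ranges of control exosomes and control lysates did not overlap, exosomes being higher, for miR-1a-3p, miR-133a-3p, miR-122-5p, miR-192-5p and miR-194-5p, as for 11.4% of the 828 lines with at least 10 counts. With TMM scaling the lowest control exosome and the highest control lysate all but met for miR-192-5p (151.4 and 151.3) and miR-194-5p (172.5 and 172.1).

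The call of miR-192-5p was the least firm. It ended without a filter on low counts (0.78, adjusted p = 0.414), without control exosome replicate 2 (1.02, adjusted p = 0.0571) and without control lysate replicate 1 (1.07, adjusted p = 0.0736). The value for miR-194-5p passed when libraries were scaled by their totals alone (1.43, adjusted p = 0.0216) and with DESeq2 (1.01, adjusted p = 0.0315), which called 36.2% of lines higher. The scaling moved all lines together: their median was -0.18 with TMM and 0.63 with totals alone. The calls were 99 higher and 73 lower under TMM, 109 and 47 under DESeq2-type size factors in edgeR, 122 and 52 with DESeq2, and 126 and 16 under totals. Relative to the median of all lines, miR-192-5p stood at 1.45 under TMM and 1.49 under totals, and miR-194-5p at 0.76 and 0.80.

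With IL4, miR-1a-3p, miR-133a-3p and miR-122-5p were again higher in exosomes. For miR-1a-3p the means were 443 ± 168.1 CPM in IL4 exosomes and 4.78 ± 1.80 CPM in IL4 lysates (SD, n = 4 and 3; log2 fold change 5.85, SE 0.89, adjusted p = 0.000149). For miR-133a-3p they were 41.9 ± 38.8 and 1.19 ± 1.28 CPM in IL4 exosomes and lysates (4.41, SE 1.35, adjusted p = 0.0136). For miR-122-5p they were 3795 ± 2864 and 105.8 ± 153 CPM in IL4 exosomes and lysates (4.33, SE 1.41, adjusted p = 0.0185). This last call ended without IL4 lysate replicate 3 (4.07, adjusted p = 0.0622), and the log2 fold change was 7.07 without IL4 lysate replicate 2, the lysate richest in miR-122-5p. The values for miR-499-5p (1.47, SE 1.70, adjusted p = 0.499), miR-192-5p (0.42, SE 0.41, adjusted p = 0.406) and miR-194-5p (0.18, SE 0.45, adjusted p = 0.761) did not pass.

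Thus 3 of the 6 members tested were higher in IL4 exosomes than in IL4 lysates, as were 30.2% of the 338 tested lines, with 64 lower (18.9%). The members' median log2 fold change was 2.90, against -0.01 for all tested lines. The filter was that of the control comparison. It again admitted miR-1a-3p, miR-133a-3p and miR-499-5p only because they were high in exosomes, for miR-499-5p those of controls. The count and the median therefore describe the members and add no support. The calls split 127 higher and 12 lower under library totals alone, where miR-192-5p passed (1.17, adjusted p = 0.0296) and the median of all lines was 0.68; relative to that median it stood at 0.48, against 0.44 under TMM. CPM ranges of IL4 exosomes and IL4 lysates did not overlap for miR-1a-3p, miR-122-5p and miR-192-5p, exosomes being higher, as for 12.3% of the 828 lines. With TMM scaling those of miR-192-5p overlapped, at 169 to 270 in IL4 exosomes and 86.1 to 200 in IL4 lysates.

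Since lysates were the deeper libraries, levels were also set at 1 depth. At the smallest total, 28417 counts, miR-1a-3p would be expected at 8.15 to 17.04 counts in IL4 exosomes and 6.996 to 93.2 in control exosomes, and at 0.195 or fewer in every lysate. At the same depth miR-122-5p would have 37.8 to 218 counts in IL4 exosomes and 25.6 to 340 in control exosomes, against 0.0825 to 7.99 in IL4 lysates and 0.252 to 5.95 in control lysates. For miR-192-5p and miR-194-5p all lysates would have 1.98 to 3.89.

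Markers of other cell types also stood higher in exosomes, where 29.3% of all tested lines were called higher in controls and 30.2% with IL4. The erythroid list (4 of 4 lines present, 4 of 4 higher in both comparisons) took 2.18% to 3.05% of counts in IL4 exosomes and 2.95% to 5.53% in control exosomes, against 0.0120% to 0.0152% in IL4 lysates and 0.0117% to 0.0211% in control lysates. The endothelial pair miR-126a-3p and miR-126a-5p (2 of 2 higher) took 0.410% to 1.59% in IL4 exosomes and 0.686% to 2.75% in control exosomes, against 0.00134% to 0.00326% in IL4 lysates and 0.00274% to 0.00339% in control lysates. The lymphocyte marker miR-150-5p (1 of 1 higher) was at 0.0639% to 0.137% in IL4 exosomes and 0.0656% to 0.187% in control exosomes, and at 0.00281% or less in lysates. Of 7 epithelial lines, 5 were tested and 2 were higher, with sums of 0.0360% to 10.5% in IL4 exosomes and 0.0849% to 4.89% in control exosomes, against 0.0161% to 0.0267% in lysates, where the epithelial miR-205-5p had 0 counts. The stromal list (4 of 5 lines present; 2 higher and 1 lower in controls, 3 higher with IL4) took 0.322% to 0.686% in IL4 exosomes and 0.495% to 0.876% in control exosomes, against 0.246% to 0.358% in IL4 lysates and 0.359% to 0.444% in control lysates. Lysate levels of miR-144-3p, miR-144-5p, the endothelial pair, miR-150-5p and miR-205-5p were below the filter's minimum. These lines could be tested only because they were high in exosomes, so their calls add no support. Lysate levels of the other marker lines, miR-451a and miR-203-3p among them, are not given singly here. The log2 fold changes of these 2 in controls were 9.74 and 9.16. Calls of the other marker lines are therefore not taken as support either. The part of the markers in the members' levels was not tested. In bulk samples, fewer cells or vesicles of a type and less RNA in each cannot be told apart.

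IL4 and control exosomes were compared next, since exosome cargo is the subject of the series. Mean levels of all 4 members tested were lower with IL4, but none passed the test. Most tested lines also leaned that way, with 75 of 182 positive. The log2 fold change was -1.43 for miR-1a-3p (SE 0.75, 95% confidence interval -3.11 to 0.26, adjusted p = 0.804) and -0.85 for miR-122-5p (SE 0.68, -2.39 to 0.68, adjusted p = 0.851). It was -0.60 for miR-192-5p, with 248 ± 39.8 CPM in IL4 exosomes and 427 ± 222 CPM in control exosomes (SE 0.38, adjusted p = 0.804). For miR-194-5p it was -0.30, with 203 ± 125 CPM in IL4 exosomes and 272 ± 67.7 CPM in control exosomes (SE 0.46, adjusted p = 0.862). Of 182 lines tested edgeR called 1 (0.549%), none of them a member, and 12 lines, 0 of them members, had an unadjusted p under 0.05. DESeq2 called 6 lines (3.33%) and 0 members. The members' median was -0.73, against -0.09 for all tested lines; with totals alone that of all lines was -0.25, and relative to it miR-1a-3p stood at -1.27, against -1.33 with TMM.

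The value for miR-1a-3p rests on 1 library. It was -0.77 with the date as a block (SE 0.68, adjusted p = 0.635). Without control exosome replicate 4 its log2 fold change was -0.14 (adjusted p = 0.931), and it ran from -1.63 to -1.08 when any other library was left out. Within dates the IL4 library was the lower in 3 of 4 pairs for miR-1a-3p, miR-133a-3p, miR-122-5p and miR-192-5p and in 2 of 4 for miR-194-5p, and for miR-499-5p it was lower in 3 and at 0 like its control in the other. The exception was 5 April for miR-1a-3p (576 CPM with IL4 against 246 CPM in the control), 16 March for miR-133a-3p, and 29 December for miR-122-5p (1329 CPM with IL4 against 902 CPM) and miR-192-5p (300 CPM against 191 CPM). The line of miR-499-5p was too low to pass the filter. Fitted without a filter its log2 fold change was -3.41 (unadjusted p = 0.0232, adjusted p = 0.528), in a fit that called 12 of 758 lines (1.58%).

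**Figure D2:**
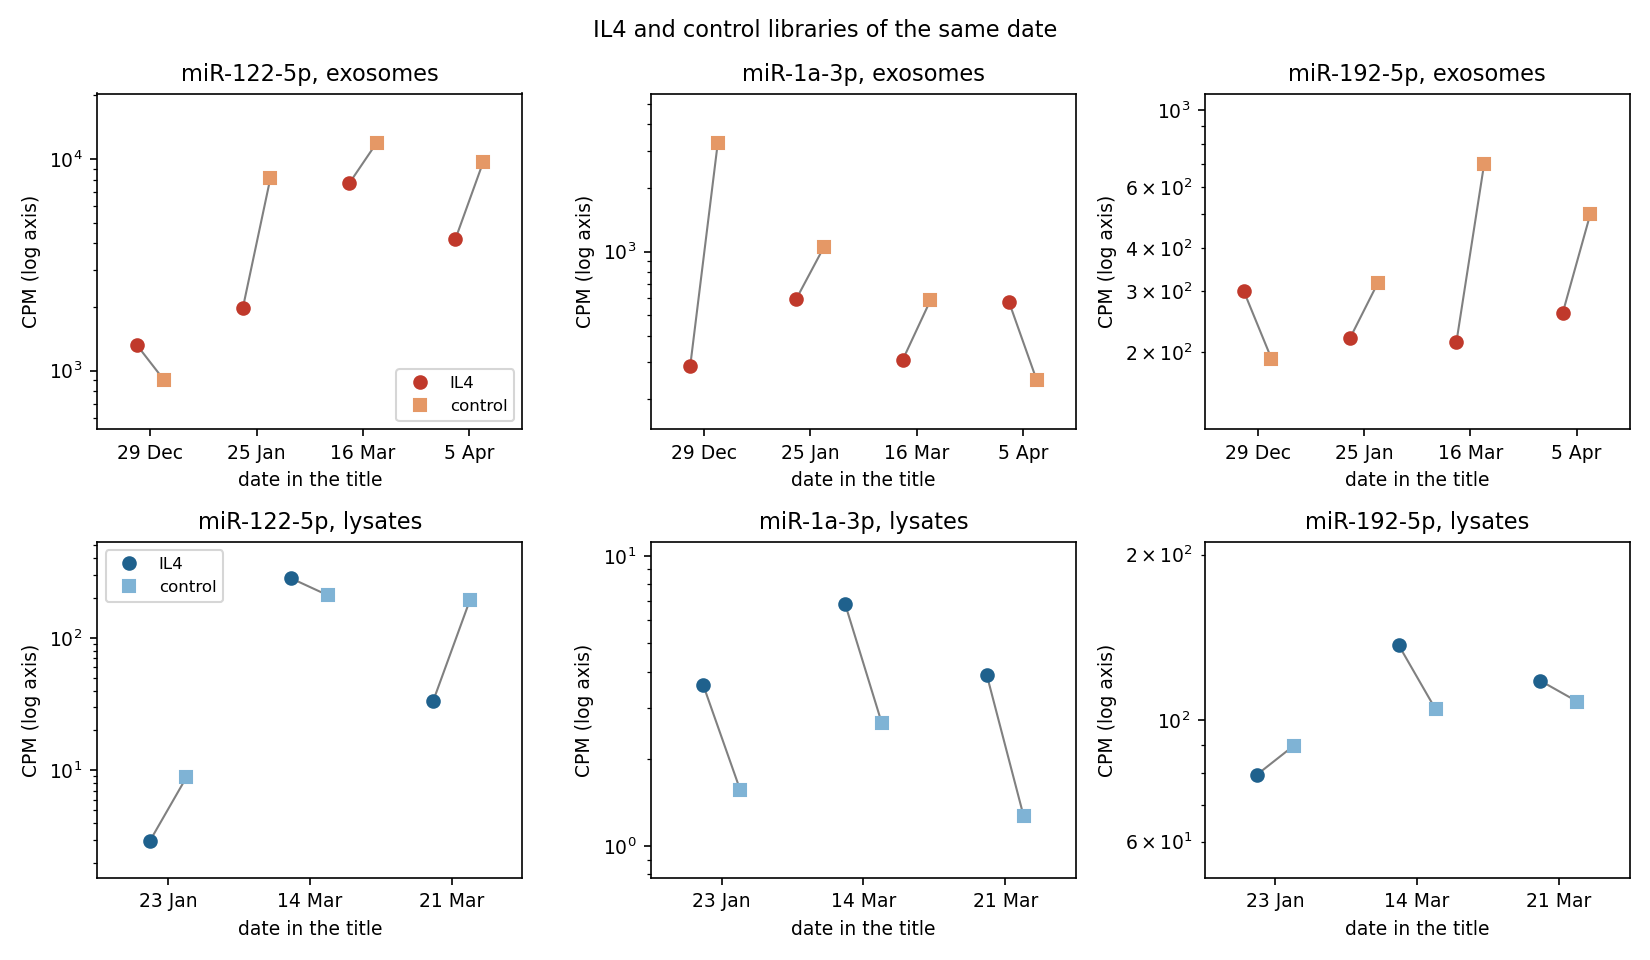
CPM (log axes, with a range of their own in each panel) of miR-122-5p, miR-1a-3p and miR-192-5p in IL4 (circles) and control (squares) libraries of the same date, joined by a line, for exosomes (top) and lysates (bottom). In exosomes 3 of 4 IL4 libraries lie below their control for each miRNA, and in lysates miR-1a-3p is higher with IL4 at 3 of 3 dates.

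In lysates miR-1a-3p stood higher with IL4 at a very low level, with 4.78 ± 1.80 CPM in IL4 lysates and 1.83 ± 0.727 CPM in control lysates (SD, n = 3 each). The log2 fold change was 1.53 (SE 0.54, unadjusted p = 0.0216), which did not pass adjustment (adjusted p = 0.203). Its ranges did not overlap, as for 5.68% of the 828 lines in that direction, and IL4 was the higher at 3 of 3 dates, by 2.29, 2.58 and 3.07 times. These levels rest on 7 to 27 counts per library. The other members did not pass: miR-192-5p had 111 ± 29.2 CPM in IL4 lysates and 100.7 ± 9.69 CPM in control lysates (0.35, SE 0.30, adjusted p = 0.760) and miR-194-5p 104.05 ± 30.8 and 104.2 ± 18.1 CPM in IL4 and control lysates (0.21, SE 0.33, adjusted p = 0.868). For miR-122-5p the value was -0.25 (SE 1.42, confidence interval -3.51 to 3.01), and with the date as a block -0.97 (SE 0.48, adjusted p = 0.324). For miR-499-5p it was -0.20 (SE 1.32). None of the 5 members tested was called by edgeR or by DESeq2, 1 had an unadjusted p under 0.05, and of 443 lines edgeR called 32 (7.22%) and DESeq2 41 (9.26%). The 32 split into 26 higher and 6 lower, against 8 and 6 with totals alone, where the median of all lines was -0.19; relative to the median miR-1a-3p stood at 1.53 with TMM and 1.54 with totals.

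The IL4 effect in exosomes was set against that in lysates as an interaction in the fit of all 14 libraries. It was -2.79 for miR-1a-3p (SE 1.05, 95% confidence interval -5.04 to -0.54, unadjusted p = 0.0185, adjusted p = 0.894), whose exosome value rests on 1 control library. It was -3.47 for miR-499-5p (SE 2.002), -1.75 for miR-133a-3p (SE 1.74), -0.85 for miR-192-5p (SE 0.57), -0.51 for miR-122-5p (SE 1.66) and -0.40 for miR-194-5p (SE 0.64). All 6 were negative, where 183 of all 338 tested lines were positive, and none passed adjustment. The 6 values come from the same libraries, and their shared sign was not tested. The filter admitted miR-1a-3p, miR-133a-3p and miR-499-5p only because they were high in exosomes. For miR-499-5p those were the control exosomes, which favoured a negative value in advance. The count of signs therefore describes the members and adds no support. Over all 338 lines edgeR called 0 and DESeq2 0, 14 had an unadjusted p under 0.05, and the median was 0.09. The contrasts share libraries, so these values are not independent of those above.

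**Figure D3:**
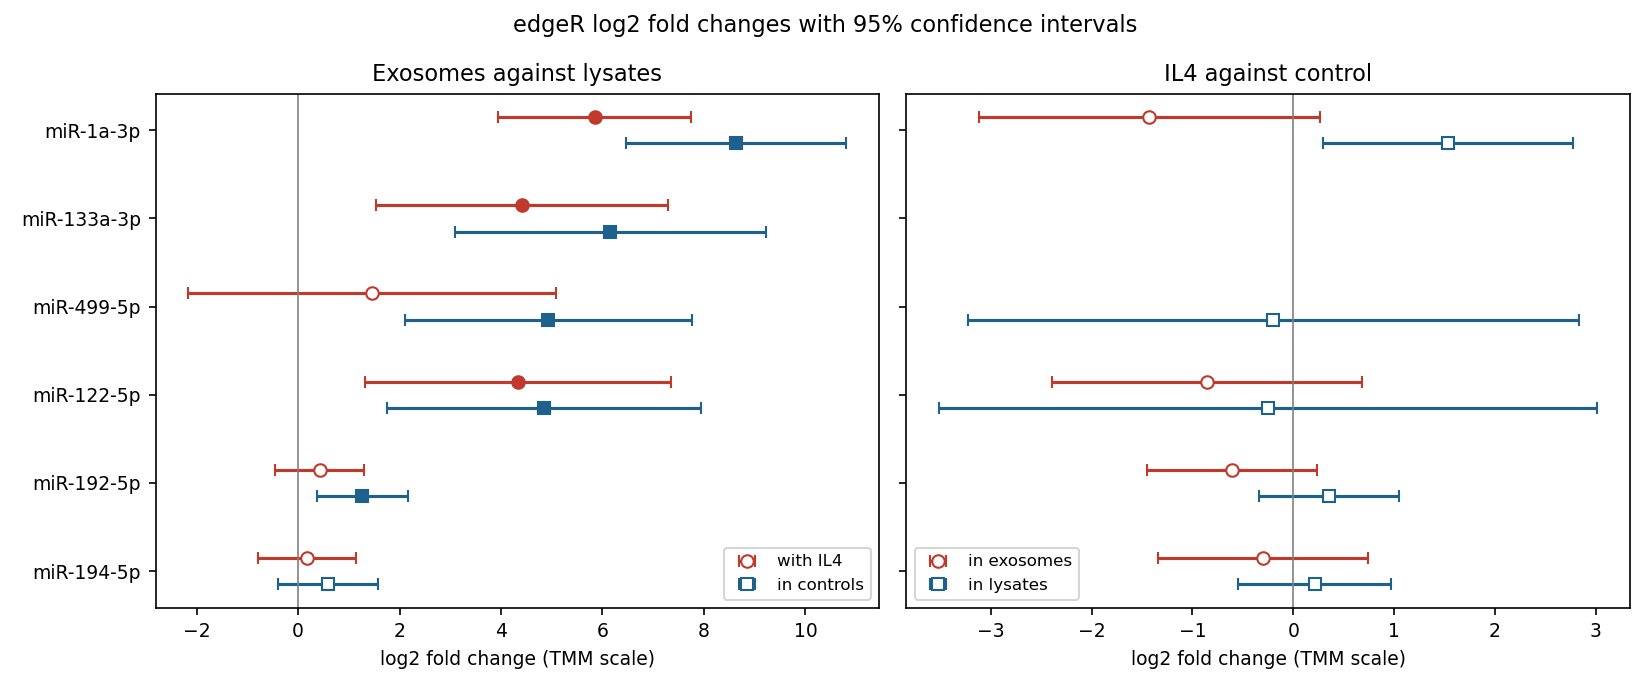
edgeR log2 fold changes on the TMM scale with 95% confidence intervals, for exosomes against lysates with IL4 (circles) and in controls (squares) on the left, and for IL4 against control in exosomes (circles) and lysates (squares) on the right; filled symbols passed an adjusted p of 0.05. For miR-1a-3p the left panel shows 5.85 with IL4 and 8.64 in controls, and on the right, where no symbol is filled, -1.43 in exosomes and 1.53 in lysates.

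Lines of hairpin partners and paralogs were read beside the members. Of 20 such miRNAs listed, 10 had a line and 7 had at least 10 counts. The 2 that could be tested between compartments, miR-1b-5p and miR-122-3p, were both called higher in exosomes, in controls and with IL4, where 29.3% and 30.2% of all tested lines were. Too few of their lysates reached the filter's minimum, so they could be tested only because they were high in exosomes, and the calls add no support. Reads of miR-1b-5p may be shared with miR-1a-3p, as above, so its line is not independent. The line of miR-1b-5p had 339.8, 67.0, 146 and 39.1 CPM in IL4 exosomes, 352, 294, 95.5 and 1312 CPM in control exosomes, 4.78, 3.04 and 3.70 CPM in IL4 lysates and 1.91, 4.86 and 2.36 CPM in control lysates. Like miR-1a-3p it was highest in control exosome replicate 4. Its log2 fold change between exosomes and lysates was 4.56 with IL4 (SE 0.97, adjusted p = 0.00151) and 6.51 in controls (SE 1.03, adjusted p = 0.000181). The other arm of the miR-122 hairpin, miR-122-3p, had 1, 6, 18 and 0 counts in IL4 exosomes and 0, 2, 3 and 0 in control exosomes, against 0, 1 and 0 in IL4 lysates and 0, 4 and 0 in control lysates. Among lysates it was seen only in those of 14 March.

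The line of miR-122b-3p, whose gene overlaps Mir122, was added after its values were seen. It had 1, 3, 35 and 0 counts in IL4 exosomes, 5, 40, 92 and 0 in control exosomes, 13, 30 and 2 in IL4 lysates and 51, 64 and 68 in control lysates. Among its reads and those of miR-122-5p the ratio was 64.2 to 1 in IL4 exosomes, 20.7 in control exosomes, 28.8 in IL4 lysates and 13.9 in control lysates. In lysates it was highest in the IL4 library of 21 March, at 85.5, and lowest in the control of 23 January, where each line had 51 reads. The lines thus did not move in 1 proportion, and since the genes overlap, how reads were assigned between them is not known here.

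Other muscle lines were sparse. The paralog miR-133b-3p, the neighbour of miR-206, had 0, 0, 3 and 0 counts in IL4 exosomes and 1, 2, 6 and 0 in control exosomes, against 0 in all IL4 lysates and 0, 2 and 0 in control lysates. The cardiac myosin miRNA miR-208b-3p had 9 counts in IL4 exosomes, 3 in control exosomes, 4 in IL4 lysates and 10 in control lysates, and miR-208a-5p had 0, 0, 7 and 16 in the same groups. The mature sequences of miR-133a and miR-133b are near-copies, so reads could be split between their lines.

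The clustered pair was read by its ratio within a library, which depth does not move. Of reads on miR-192-5p and miR-194-5p together, miR-192-5p took 57.5% in IL4 exosomes (exact binomial interval 51.4% to 63.4%), 60.6% in control exosomes (54.3% to 66.7%), 51.8% in IL4 lysates (49.996% to 53.5%) and 49.3% in control lysates (47.7% to 50.9%). The lysates were thus near equal amounts, from 46.6% to 53.3% in single libraries, while single exosome libraries ran from 37.2% to 78.6% with IL4 and from 46.7% to 69.1% in controls. The paralog of miR-192-5p, miR-215-5p, had 19 counts in IL4 exosomes, 19 in control exosomes, 13 in IL4 lysates and 32 in control lysates. There were 8.26 reads of miR-192-5p for 1 of miR-215-5p in IL4 exosomes and 8.11 in control exosomes, against 124 in IL4 lysates and 56.9 in control lysates. In controls this contrast rests on 1 library, since 18 of the 19 control exosome counts of miR-215-5p came from 5 April. Without that library, an alternative chosen after seeing the data, the control exosomes had 54 reads of miR-192-5p and 1 of miR-215-5p. The passenger arm miR-194-2-3p, of the chromosome 19 gene, had 1 count in IL4 exosomes, 0 in control exosomes, 28 in IL4 lysates and 11 in control lysates.

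For miR-1a-3p beside miR-1b-5p, miR-1a-3p took 78.6% of their reads in IL4 exosomes (74.2% to 82.5%), 71.3% in control exosomes (66.0% to 76.2%), 53.5% in IL4 lysates (44.5% to 62.4%) and 37.4% in control lysates (27.4% to 48.1%). The pooled share of miR-1a-3p was thus larger in exosomes, in either condition. Single libraries ran from 63.8% to 88.0% in IL4 exosomes and from 66.7% to 75.0% in control exosomes, against 42.9% to 69.2% in IL4 lysates and 35.0% to 45.0% in control lysates, so that the groups overlapped with IL4. The 5 April library held 237 of the 312 miR-1a-3p reads of IL4 exosomes, and without it, also chosen after seeing the data, their pooled share was 75.0%. Intervals here cover counting error only and not the spread between libraries.

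**Figure D4:**
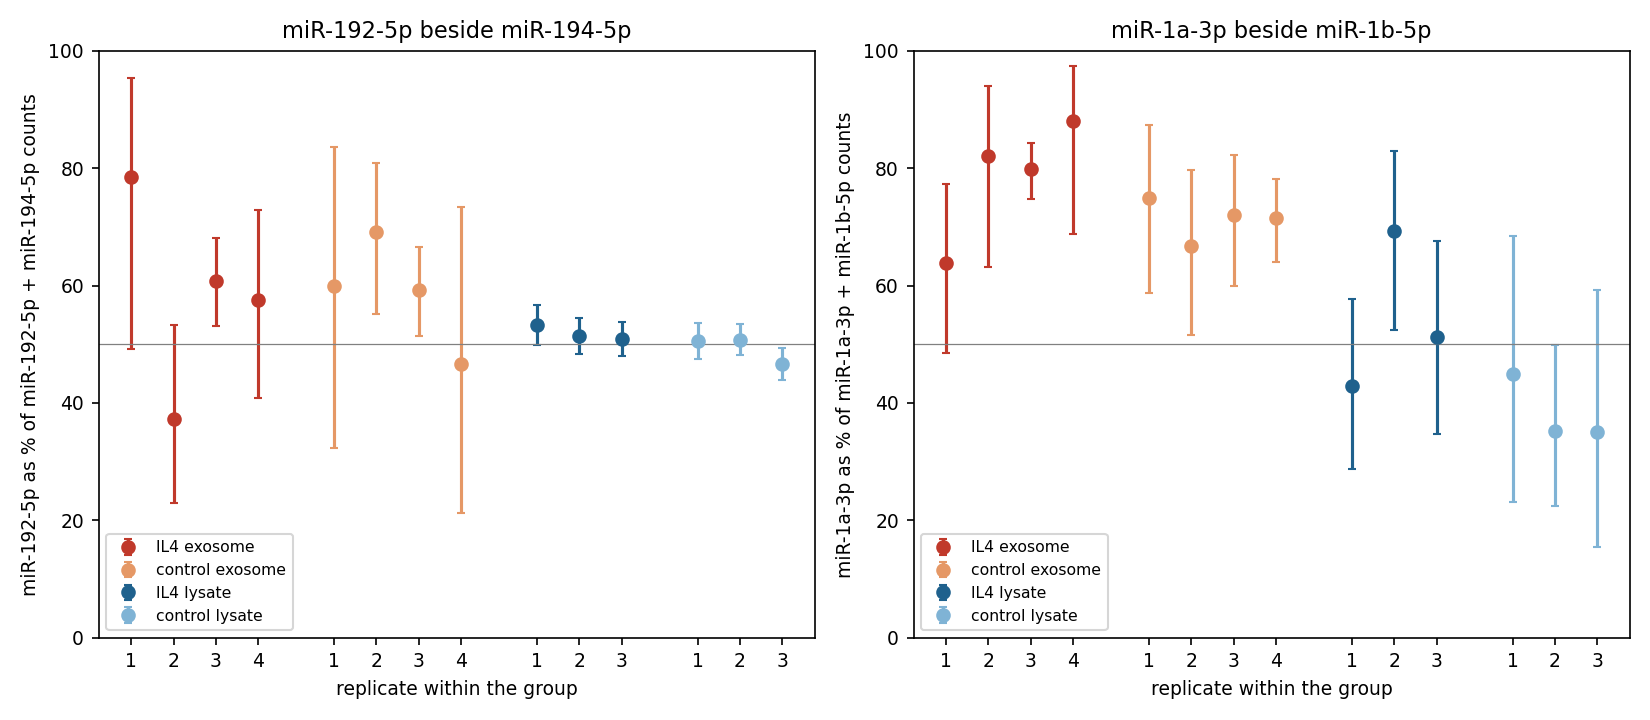
Share of reads (%) on miR-192-5p within the sum of miR-192-5p and miR-194-5p (left), and on miR-1a-3p within the sum of miR-1a-3p and miR-1b-5p (right), in each library by group and replicate; bars are exact 95% binomial intervals. Lysates stay between 46.6% and 53.3% on the left, and on the right the pooled shares are 78.6% in IL4 exosomes and 71.3% in control exosomes, against 53.5% in IL4 lysates and 37.4% in control lysates.

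Of 11 miRNAs restricted to other organs (pancreas and brain), 6 had a line and 5 at least 10 counts. The endocrine and epithelial miRNA miR-375-3p had 12 counts in IL4 exosomes and 10 in control exosomes, against 2 in IL4 lysates and 0 in control lysates. The oligodendrocyte miRNA miR-219a-5p averaged 120 ± 121 CPM in IL4 exosomes and 173 ± 174 CPM in control exosomes, and 0.901 ± 0.768 CPM in IL4 lysates and 2.09 ± 0.554 CPM in control lysates. Both were called higher in exosomes with IL4 and in controls, as were 30.2% and 29.3% of all tested lines, but they too could be tested only because they were high in exosomes. The neuronal miRNA miR-124-3p had 6 counts in IL4 exosomes and 17 in control exosomes, against 3 in IL4 lysates and 0 in control lysates. Of the 17, 14 came from control exosome replicate 1, and without it 3 were left. The pooled level of miR-129-5p was 4.89 CPM in IL4 exosomes and 31.4 CPM in control exosomes, against 3.01 CPM in IL4 lysates and 4.597 CPM in control lysates. That of miR-219a-1-3p was 9.79 CPM in IL4 exosomes and 12.6 CPM in control exosomes, against 5.42 CPM in IL4 lysates and 5.93 CPM in control lysates. Both had 0 counts in 3 of 4 IL4 exosomes, and their exosome and lysate ranges overlapped.

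Lines whose levels were most like those of the members were named by Spearman's rho of CPM, as a description over libraries that share compartment and depth. Over the 14 libraries miR-1a-3p was most like miR-1b-5p (0.94), miR-5119 (0.91) and miR-100-5p (0.89), and over the 8 exosome libraries like miR-1b-5p (0.93), miR-5119 (0.83) and miR-5124a (0.83). For miR-133a-3p they were miR-376c-3p (0.89), miR-382-5p (0.89) and miR-369-5p (0.88) over 14, and for miR-499-5p miR-323-3p (0.93), miR-154-3p (0.83) and miR-433-3p (0.75). The liver miRNA miR-122-5p was most like miR-127-3p (0.98), miR-495-3p (0.98) and miR-369-3p (0.97) over 14 libraries, and like miR-32-5p (0.93), miR-127-3p (0.90) and miR-143-3p (0.90) over the exosomes. For miR-192-5p they were miR-335-5p (0.97), miR-122-5p (0.94) and miR-495-3p (0.93) over 14, and miR-335-5p (0.93), miR-144-3p (0.86) and miR-191-5p (0.83) over 8. For miR-194-5p they were miR-412-5p (0.90), miR-369-3p (0.84) and miR-379-5p (0.84) over 14, and miR-142a-5p (0.86), miR-24-3p (0.79) and miR-494-3p (0.76) over 8.

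Among the members the exosome libraries did not order alike. Over the 8 exosomes rho was 0.79 between miR-122-5p and miR-192-5p, 0.43 between miR-122-5p and miR-194-5p and 0.21 between the cluster partners miR-192-5p and miR-194-5p. For miR-1a-3p it was negative with each, at -0.29 with miR-122-5p, -0.36 with miR-192-5p and -0.57 with miR-194-5p. The muscle and the liver miRNA thus peaked in different libraries, miR-1a-3p in the control of 29 December and miR-122-5p in the control of 16 March.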

How the data were processed

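Small RNA libraries of 8 exosome and 6 lysate samples were read from 1 table of raw counts, deposited by the authors with a line for each mature miRNA, and 0 columns of no sample. Per the labels' protocols, exosomes were purified from culture supernatant on an OptiPrep gradient and libraries made with the PerkinElmer NextFlex kit. Per the submitters' processing notes, cutadapt and the build mm10 were used; the aligner, counting program, annotation and use of strand were not given in the sources used here. Trimming and counting set which reads reach a line, and could not be varied. CPM are counts over the library's total, and log2 fold changes carry TMM scaling.

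Groups came from the titles. Tests were edgeR 4.0.16 in R 4.3.3 (filterByExpr, TMM, glmQLFit, glmQLFTest, two-sided, Benjamini-Hochberg over all lines tested, threshold 0.05), within exosomes, within lysates, and in 1 fit of 14 libraries for compartments and interaction. SE is the log2 fold change over the square root of F. Fits, except that of exosomes against lysates with IL4, were run on simulated counts with the same spread in every line. This checked the code, and not error rates at the spread of these data. Alternatives were a date block, other scalings, no filter, DESeq2 1.42.0, other sets of libraries and each replicate left out. Dates in the titles pair IL4 and control libraries: same-date deviations correlated at 0.46, 0.19, 0.72 and 0.27 in exosomes and 0.61, 0.26 and 0.28 in lysates. Replicates differed beyond sampling noise (chi-square over degrees of freedom at least 21.0). Replicates may be technical, since no label ties them to animals or cultures; p-values measure only their spread. PCR reads are not independent molecules.

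Named were all members, listed partners and other organ-restricted lines with at least 10 counts, and the 3 lines most like each member. Members and lists were chosen with earlier results of these data known. Intervals were computed with scipy 1.17.1.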

Additional observations from a re-analysis of the deposited data

Results flagged for a closer look

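In 42 groups of 4 exosome libraries, 1 for each named line and condition, the gap of the highest or lowest library to its nearest neighbour was set against the whole range of the group. In 8 groups it was above Dixon's critical value of 0.829 for 4 samples, and none of the 8 was of a member. Chance gives about 1 in 20 for normally distributed values, which sparse counts are not. The neuronal miR-124-3p stood at 493 CPM in control exosome replicate 1, from 14 counts. In 6 of the groups the other libraries were all at 0, so the gap was the whole range whatever the count. The 1 in 20 does not apply to such groups. These were miR-133b-3p and miR-129-5p (both 7.29 CPM) and miR-219a-1-3p (14.6 CPM) in IL4 exosome replicate 3, miR-219a-1-3p in control exosome replicate 3 (20.1 CPM), and miR-194-2-3p (13.4 CPM) and miR-122b-5p (107 CPM) in IL4 exosome replicate 2. The line of miR-122b-5p was also apart in control exosome replicate 2, at 110.3 CPM.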

How the results depend on the processing

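Of 367 alternative values of the members' log2 fold changes, 344 kept their direction and side of the threshold, 4 lost a call, 3 gained one and 16 changed sign. The calls of miR-1a-3p and miR-133a-3p between compartments, and of miR-499-5p and miR-122-5p in controls, held in every alternative that could be fitted, with highest adjusted p-values of 0.000404, 0.0142, 0.0226 and 0.0308 in controls and 0.00134 and 0.0452 for miR-1a-3p and miR-133a-3p with IL4. In the filtered alternatives miR-1a-3p, miR-133a-3p and miR-499-5p were again tested only because they were high in exosomes. That their calls held there adds no support. Sign changes were all in values that were not called. Without a replicate, miR-194-5p between exosome groups ran from -0.54 to 0.017, miR-499-5p between lysate groups from -1.73 to 0.37, miR-122-5p between lysate groups from -2.61 to 0.32, miR-194-5p between IL4 exosomes and IL4 lysates from -0.018 to 0.60, and the interaction of miR-122-5p from -0.99 to 2.16. Without a filter miR-194-5p between IL4 exosomes and IL4 lysates was -0.025, and under library totals alone miR-194-5p between lysate groups was -0.0023. With the date as a replicate block the interaction of miR-122-5p was 0.42 and the calls between lysate groups were 50 in place of 32; the block changed no call of a member. Calls between exosome groups, 1 in the analysis reported, were 0 under library totals, 12 without a filter, 6 with DESeq2 and 0 to 2 without a replicate. Those between lysate groups were 14 under library totals, 4 in 1 fit of all libraries and 2 to 34 without a replicate, and the interaction had 3 without a filter. Per TMM-scaled library size the mean of miR-1a-3p in IL4 lysates was 6.82, those of miR-192-5p 162 in IL4 and 132 in control lysates, and those of miR-194-5p 200.2 in control exosomes, 152 in IL4 lysates and 137 in control lysates. The cause of these changes was not tested. Exosome depth limits values of a few reads, and miR-206-3p could be fitted only without a filter.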
